A study of Mus musculus with 2 samples.

Results

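These results concern 79 array probes that read at least 2-fold lower in the epidermis of newborn mice whose keratinocytes can lose caspase-8. They were chosen on the epidermis array by 4 limits. The spot had to be even, with a pixel SD of at most 0.5 times the pixel mean in both dyes. The log2 ratio of the net signals (spot mean minus median of the local background), centred on its median over probe spots, had to be -1 or less. The larger net signal had to reach 200, and the geometric mean of both had to stay under 10000. The members were 79 of 20868 named probes on the array, and 79 of the 13265 probes that met every limit other than the ratio, a share of 0.596%. That share is fixed by the rule and nothing is read from it. These 13265 probes are the comparison probes for all other counts.

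The study used 2 two-colour arrays, 1 of epidermis and 1 of dermis, both at postnatal day 3. The dye Cy3 marked RNA from Casp-8 F/+ K5-Cre animals and Cy5 that from Casp-8 F/- K5-Cre animals. Each channel held RNA pooled from 3 mice, except that the Casp-8 F/- K5-Cre dermis came from 2 mice. The layers had been parted with dispase at 2.4 U/ml and 4 °C overnight. All animals carried K5-Cre, in which the keratin 5 promoter drives Cre recombinase in basal keratinocytes. By convention F stands for a floxed allele, which Cre deletes. Keratinocytes of F/- animals can thus end up with no intact Casp-8, and those of F/+ animals with 1 intact copy. In cells of either layer where Cre did not act, the groups still differed by the - or + allele. Whether keratinocytes remained in the parted dermis was not tested. The groups are called F/- and F/+ below, and every genotype ratio is F/- over F/+.

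Caspase-8 is the protease that starts apoptosis downstream of death receptors such as Fas and the TNF receptor, and its activity also holds back a second, lytic form of cell death called necroptosis. The epidermis is a layered sheet of keratinocytes that divide in the basal layer and form the barrier as they move outward. The dermis below it holds fibroblasts, vessels, nerves and immune cells. Mice without caspase-8 in keratinocytes are known for an inflammatory skin disease that begins soon after birth.

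The files name each spot by the manufacturer's probe number. No gene was paired with these numbers in the tables used here (0 of 79 members matched), so the members are reported as probes, and Casp8 itself, marker genes of the layers and probe sequences were not looked up. In a pool of cells, fewer cells of a type and less RNA per cell cannot be told apart. No test was possible with 1 array per tissue, so all values below are descriptions of these pools. Both arrays were labelled the same way round, and thus a probe's preference for one dye and a difference between the genotypes cannot be told apart. Error could be gauged only from repeated spots within an array. For the 50 probes with 10 spots, log2 ratios had a pooled SD of 0.11 (epidermis array) and 0.063 (dermis array). None of the 79 members was printed more than once.

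On the arrays as a whole, the median net signal of probe spots lay between 279 and 508 over the 4 channels, and 95.4% to 97.9% of probe spots lay above the level that 95% of the 162 negative control spots did not exceed. At the median, Cy5 read lower than Cy3 on both arrays. Median log2 ratios of -0.72 (epidermis) and -0.60 (dermis) were subtracted, so a centred ratio of 0 is that of the middle probe.

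In the epidermis, where the members were chosen, 1 probe stood far apart from the rest. A_51_P145453 had a net signal of 8799 in F/+ and 28.2 in F/-. In that channel 95% of negative control spots lay at or under 29.1, and the F/- signal was no higher. By centred net signals, the probe was thus at least 184-fold lower in F/-, a bound that holds for this processing only. It was the 1 member, and the 1 probe of the 13265, whose F/- epidermal signal was not above that limit. The measured centred log2 ratio was -7.57, and the authors' deposited table gives it as -7.48.

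The next members lay much closer to the threshold. A_51_P389265 had net signals of 5355 in F/+ and 726 in F/- epidermis, a centred log2 ratio of -2.16. A_51_P453909 had 10598 and 1590, a ratio of -2.02. Both were thus about 4-fold lower, at 4.48-fold and 4.05-fold. A_51_P503625 was a dim probe, with 237 in F/+ and 42.1 in F/-, a ratio of -1.78. A_51_P307650 had 954 and 176 (-1.72), and A_51_P191611 had 5238 and 1026 (-1.63). These 6 probes were the members that read at least 3-fold lower.

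Ranks 7 to 10 lay close together. A_51_P229676 had 2008 in F/+ and 416 in F/- epidermis, a ratio of -1.55. A_51_P137544 had 7560 and 1570, also -1.55. A_51_P457244, with 524 and 110, and A_51_P138933, with 1010 and 212, both had -1.53. The ratios of these 4 probes differed from each other by less than the SD between spots.

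The other 69 members filled the range from there to the threshold. Over all 79 the lower quartile of the ratio was -1.28, the median -1.15 and the upper quartile -1.09, so that members between the quartiles were 2.12-fold to 2.43-fold lower. The 3 members just inside the threshold were A_51_P146701 at -1.01, A_51_P434759 at -1.002 and A_51_P378870 at -1.001. The 3 probes just outside were A_51_P368343 at -0.99, A_51_P330369 at -0.99 and A_51_P476261 at -0.99. The distance between these groups was smaller than the SD between spots, and each of these 6 probes rests on 1 spot.

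F/+ epidermal net signals of the members ran from 221 to 16309 with a median of 1129, and F/- signals from 28.2 to 4482 with a median of 291. The spots were even. Pixel SDs in the epidermis were at most 0.097 of the mean in Cy3 and 0.17 in Cy5, far inside the limit of 0.5. Of the 79 members, 47 lay in the lower-numbered rows of the array, against 51.0% of the comparison probes, and 33 in the lower-numbered columns, against 49.0%.

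The authors' deposited table holds an epidermal value for all 79 members, and 75 of these were at or below -1 on the log2 scale, against 0.639% of the comparison probes in that table. The highest of them was -0.97, and the largest distances from the ratios given here were -0.11 and 0.099. The deposited values come from the same spots, so they bear on the processing and not on the animals. After normexp background correction with an offset of 50 and loess, a curve that removes the dependence of the ratio on brightness, 51 of the 79 members still read at least 2-fold lower. In that setting A_51_P503625 moved from -1.78 to -1.15, and A_51_P145453 from -7.57 to -6.20.

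The dermis array was not used to choose the members. Most of them read lower in F/- there as well, by smaller amounts. A dermal ratio below 0 was found for 63 of 79 members, against 38.9% of the comparison probes, and their median was -0.30, against 0.050. Quartiles were -0.63 and -0.073. At least 1.5-fold lower were 24 of 79, against 0.716% of the comparison probes. At least 2-fold lower were 2 of 79, against 0.0151%, and these 2 were the entire count among the 13265 probes. At least 2-fold higher was 1 of 79, against 0.106%. By the authors' deposited table, which has a dermal value for 78 members, 4 were at least 2-fold lower, against 0.0302% of the comparison probes, and 28 at least 1.5-fold lower, against 0.793%. The comparison probes include the members, and these 4 were all that read at least 2-fold lower there. After normexp and loess 6 of 79 were at least 2-fold lower, against 0.0528%, and 28 at least 1.5-fold lower, against 0.678%. In that setting 6 of the 7 comparison probes at least 2-fold lower were members. The share of comparison probes below 0 moved with the processing. It was 51.8% after normexp and loess, where 56 of 79 members lay below 0, and 47.9% in the authors' deposited table, where 57 of 78 did, so that the members stood closer to the comparison probes in both. Whether the same mice gave both layers is not stated in the labels. A dye preference shared by the arrays would move both ratios the same way, and its part in these counts was not tested.

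Of the 95 comparison probes at least 1.5-fold lower in F/- dermis, 24 were members, 25.3% of that list and 30.4% of the members. The same 1.5-fold limit in the epidermis, a ratio of -0.58 or below, was met by 3.05% of the comparison probes and, through the rule, by every member. Of the 71 probes of that list that were no members, 20 met it, against 2.47% of all comparison probes that were no members. The 111 probes that read at least 2-fold higher in F/- epidermis under the same limits were looked up on the dermis array too. Of these 111, 25 had a dermal ratio below 0, against 38.9% of the comparison probes, and 21 were at least 1.5-fold higher, against 1.31%. At least 1.5-fold lower were 0, against 0.716%, a share too small for a count of 0 among 111 probes to be read.

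A_51_P145453 was the member with the lowest dermal ratio too. Its dermal net signals were 476 in F/+ and 43.0 in F/-, a ratio of -2.86 or 7.28-fold lower. Both dermal signals were above the negative controls. After normexp and loess the dermal ratio was -2.02, and the authors' deposited table has -2.69. Its F/- signals were thus dim in both layers, while its F/+ signals were not.

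The second member past 2-fold in the dermis, A_51_P246345, rests on an uneven spot. Its dermal net signals were 16473 and 2928, a ratio of -1.89, but the pixel SD was 1.22 times the mean in Cy3 and 1.69 times in Cy5. Median pixels gave 5770 and 334, a ratio of -3.51. The authors' deposited table gives no dermal value for it. Without this probe, 1 of 78 members was at least 2-fold lower in the F/- dermis, against 0.00754% of the comparison probes that were even on the dermis array. That 1 member was the entire count among these probes. At least 1.5-fold lower were 23 of 78, against 0.701%.

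A_51_P389265 was opposite in the 2 layers. Its epidermal net signals were 5355 in F/+ and 726 in F/-, and its dermal ones 452 and 1124. The epidermal ratio was -2.16 and the dermal ratio 1.92, or 3.78-fold higher in F/-. In F/- skin its dermal signal thus exceeded its epidermal one before scaling, whereas in F/+ skin the epidermal signal was the higher. The difference of the ratios was -4.08, against SDs between spots of 0.11 and 0.063. These SDs come from repeated spots of other probes and hold no spread between animals or pools.

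The other members that read at least 1.5-fold lower in the dermis were 22 even spots with ratios between -0.97 and -0.60. The lowest of these, named after their values were seen, were A_51_P185523, with dermal net signals of 4138 and 1392 (-0.97), A_51_P457244, with 363 and 127 (-0.92), and A_51_P486257, with 1381 and 494 (-0.88). Next came A_51_P114606, with 2211 and 814 (-0.84). The epidermal ratios of the 22, under -1 by the rule, lay between -1.53 and -1.01.

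Dermal ratios above 0 were found for 16 members. After A_51_P389265 the highest were 0.59 for A_51_P215237, with dermal net signals of 183 and 181, and 0.47 for A_51_P430139, with 469 and 429. A_51_P212491, with 2702 and 2437, and A_51_P431020, with 5738 and 5142, had 0.45. These 4 were also named after their values were seen. In 1 member, A_51_P388640, both dermal signals, 44.1 and 19.6, were not above the negative controls, so its dermal ratio is not interpreted. The dermal ratios of several of the lowest epidermal members were close to 0, at -0.12 for A_51_P453909, -0.086 for A_51_P503625, -0.056 for A_51_P137544 and -0.13 for A_51_P138933. A_51_P229676 had 0.13, A_51_P307650 had -0.21 and A_51_P191611 had -0.40. Some of these ratios rest on dim signals. Dermal net signals were 137 and 84.7 for A_51_P503625, 171 and 108 for A_51_P137544, and 78.8 and 45.0 for A_51_P307650.

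Levels in the 2 layers were compared within one dye, after normexp correction and quantile normalization, as log2 epidermis minus dermis. Unlike the genotype ratios, these differences set 2 arrays against each other, and their pooled SD between spots was 0.21 in Cy3 and 0.22 in Cy5. The epidermal signals of the members entered the rule, so the layer differences are given as a description. A high F/+ epidermal signal relative to F/- is what the rule asks for, which favours higher layer differences in F/+. In F/+ skin 30 of 79 members read at least 2-fold higher in the epidermis, against 13.9% of the comparison probes, and 6 at least 2-fold higher in the dermis, against 10.8%. The latter count was 3 with 1 median factor per channel in place of quantile normalization. The median difference was 0.43, against 0.11 for the comparison probes.

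In F/- skin, at least 2-fold higher in the epidermis were 16 of 79, against 13.0% of the comparison probes, and at least 2-fold higher in the dermis were 22, against 11.0%. The median difference was -0.42, against 0.080. The layer difference was smaller in F/- than in F/+ for 78 of 79 members, and for 78 of 79 the epidermal genotype ratio lay below the dermal one. These are nearly the same statement, since both are made from the same 4 signals, and the rule favours it. No share of the comparison probes is given beside these counts, and nothing is read from them. The exception was A_51_P246345, with its uneven dermal spot.

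By class, 16 members were epidermal, at 2-fold or more, in both genotypes, against 11.2% of the comparison probes. A further 14 were epidermal in F/+ and within 2-fold in F/-, against 2.74%. Within 2-fold in both were 27 members, against 71.7%. Within 2-fold in F/+ and dermal in F/- were 16, against 1.72%, and dermal in both were 6, against 9.31%. The rule asks for a low F/- epidermal signal and so favours the classes that shift towards the dermis in F/-. From epidermal in F/+ to dermal in F/- went 0 members and 0 comparison probes.

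The member with the largest layer difference in F/+ was A_51_P137544, at 5.03 or 32.6-fold higher in the epidermis. Its net signals were 7560 and 171 in F/+ epidermis and dermis, and 1570 and 108 in F/-, where the difference was 3.51. A_51_P111094 had 2654 and 56.6 in F/+, a difference of 4.69, and 3.33 in F/-. A_51_P453909 had 10598 and 396 (4.47), and 2.66 in F/-. A_51_P234956 had 1655 and 61.0 (4.03), and 2.39 in F/-. These 4 probes stayed well above 2-fold in F/- skin, by 5.26-fold for A_51_P234956 and by more for the others. For 2 of them the dermal signals were little above the negative control limits of 49.2 in Cy3 and 28.7 in Cy5. A_51_P111094 had 56.6 and 35.0, and A_51_P234956 had 61.0 and 46.8, so the size of their layer differences is uncertain.

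A_51_P145453 differed from them. Its layer difference was 3.94 in F/+, or 15.4-fold. In F/- its epidermal signal was not above the negative controls, so the layer difference there is not interpreted, although the probe counts among the 14 within 2-fold. For A_51_P389265 the difference was 3.36 in F/+ and -0.42 in F/-, against the SD between spots of 0.22 in Cy5.

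At the other end of the range, A_51_P246345 had the smallest layer difference in F/+, -4.04, from its uneven dermal spot. A_51_P378870 had net signals of 417 in F/+ epidermis and 4838 in F/+ dermis, a difference of -3.49 or 11.2-fold higher in the dermis, and -3.99 in F/-. Its dermal genotype ratio was -0.14. A_51_P212491 had 960 and 2702 in F/+, or 2.84-fold higher in the dermis, and a difference of -2.99 in F/-. A_51_P230808 had 6079 and 10552 (-1.16), and A_51_P177390 had 3774 and 6792 (-1.15). The dermal genotype ratios of this last pair were -0.77 and -0.82.

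The dermal genotype ratio was also taken by layer class. The 30 members that read higher in the epidermis of F/+ skin had a median dermal ratio of -0.10, with 20 below 0 and 1, A_51_P145453, at least 1.5-fold lower. The 20 include A_51_P388640, whose dermal ratio is not interpreted. Many of the 30 were dim in the dermis. Median dermal net signals were 136 in F/+ and 70.8 in F/- for the 16 that were epidermal in both genotypes. They were 359 and 186 for the other 14, against 644 and 397.5 over all 79 members. The part of dim signals in the differences between classes was not tested. Among the comparison probes of that class 43.9% were below 0 and 1.03% at least 1.5-fold lower. The 43 members within 2-fold had a median of -0.56, with 38 below 0 and 19 at least 1.5-fold lower, against 38.7% and 0.621%. The 6 members that read higher in the dermis had a median of -0.80, with 4 at least 1.5-fold lower, against 0.977%. A_51_P246345, with its uneven dermal spot, was among both the 6 and the 4. A_51_P185523, A_51_P230808 and A_51_P177390, at layer differences of -1.12, -1.16 and -1.15, lay within the SD between spots of the class limit. With 1 median factor per channel the class held 3 members. The F/+ dermal signal enters both the class and the dermal ratio.

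Among the 43 members within 2-fold, 6 had a geometric mean net signal of 4000 or more in the epidermis. They were A_51_P357114, A_51_P517120, A_51_P163482, A_51_P121861, A_51_P330615 and A_51_P288240, grouped here after their values were seen. Epidermal net signals ran from 9085 to 15337 in F/+ and from 2522 to 4258 in F/-. Dermal signals ran from 10903 to 19342 and from 5077 to 8819. Their epidermal ratios lay between -1.22 and -1.08, their dermal ratios between -0.60 and -0.50 and their F/+ layer differences between -0.99 and -0.63. All 6 were below 0 in the dermis, and 1, A_51_P517120, was at least 1.5-fold lower. Of the 968 comparison probes within 2-fold at the same brightness, 10.4% were below 0 and 0.207% at least 1.5-fold lower, and their median was 0.24. Among all members with a geometric mean of 2000 or more, 4 of 14 were at least 1.5-fold lower, against 0.190% of the comparison probes. In the authors' deposited table the dermal values of these 6 probes lay between -0.94 and -0.76 on the log2 scale. After normexp and loess they lay between -1.04 and -0.83. All 6 were thus at least 1.5-fold lower in both settings, for which no share of equally bright comparison probes is given.

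Dermal ratios were also taken in bands of the epidermal ratio. The 10 at or below -1.5 had a median dermal ratio of -0.13. The 19 between -1.5 and -1.2 had a median of -0.072, and the 50 between -1.2 and -1 had a median of -0.43. At least 1.5-fold lower in the dermis were 2, 6 and 16 of these, against the 0.716% of all comparison probes. The bands also differed in layer class. Higher in the epidermis of F/+ skin, the class with many dim dermal signals, were 8 of the 10, 6 of the 19 and 16 of the 50. Among the comparison probes 13.9% were in that class. The part of layer class and of dim signals in the medians of the bands was not tested.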

How the data were processed

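Members and lists were chosen with earlier results of these data known. The authors deposited scanner files with 1 dye of 1 array each, 4 in all, which hold pixel intensity of spots and of the background around them. Spots were outlined as fixed circles (program version 5.0) with no subtraction recorded, per the file headers. They also deposited a table of log10 ratios of Cy5 over Cy3, features numbered down the array's columns, as the values show: 0 of 1257 control and unnamed spots had a value in it, and over the comparison probes r against the ratios computed here was 0.99 in the epidermis and 0.83 in the dermis, so the deposited dermal values stand further from them. Its normalization is not given here by any header or label. Dyes were read from the image names in the headers.

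Net signals, ratios and counts were computed in Python 3.11.15 with pandas 2.3.3. The dermal ratio used the epidermal formula, without the limit on uneven spots. Normexp (offset 50), loess (span 0.3, control spots with weight 0) and quantile normalization were run in R 4.3.3 with limma 3.58.1. The code of the rule was checked on simulated signals with 3-fold changes. This check does not bear on 2-fold calls or on dim spots. No spot carried a flag, and 34 Cy5 probe spots in the epidermis and 4 in the dermis were at the scanner's upper limit. The number of arrays limits the precision. Named were the 10 lowest members, 3 on each side of the threshold, those past 2-fold in the dermis and the 5 largest and 5 smallest layer differences. The gene and marker lists could not be applied without gene names. Alternatives covered background, centring, pixel summary, limits, thresholds and the deposited values.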

Additional observations from a re-analysis of the deposited data

Results flagged for a closer look

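A_51_P389265 read at least 2-fold lower in F/- epidermis and at least 2-fold higher in F/- dermis, with a difference of the log2 ratios of -4.08. This difference between the layers was not tested, since each rests on 1 spot of 1 array. In the authors' deposited table the ratios are -2.19 and 1.86 on the log2 scale.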

How the results depend on the processing

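The count of 79 members ranged from 55 to 84 under loess, median pixels, other evenness limits, signal floors of 100 and 500, no ceiling and the authors' deposited table, with 51 to 79 of the members shared. It was 405 at 1.5-fold and 6 at 3-fold, and 1732 with no centring, where the overall balance of the dyes enters. Members at least 2-fold lower in the dermis numbered 2, against 6 after normexp and loess and 4 in the authors' deposited table. For loess and the deposited table the cause was not tested. With no centring the count was 37, against 2.57% of the comparison probes. It was 1 without the uneven spot and 24 at 1.5-fold. The 1.5-fold count of 24, whose alternatives were added after the data were seen, was between 23 and 28, other than 63 with no centring. The median dermal ratio was -0.91 with no centring, against -0.55 for the comparison probes. It was -0.50 for the 61 members with a dermal signal of 200 or more, against 0.059 for such comparison probes. Members with a dermal ratio below 0 numbered 50 of 61 there, against 36.7% of the comparison probes. With no centring 78 members and 98.9% of the comparison probes were below 0, and 43.1% of the comparison probes were at least 1.5-fold lower. In the other settings 56 to 62 members were below 0, against 38.9% to 51.8%. Members at least 2-fold lower in epidermis than dermis in F/+ numbered 6, and 3 with 1 median factor per channel, where the cause was not tested; the other layer counts and medians kept within 1.5 times or the SD between spots. Of 151 alternative ratios of the 19 named members, 72 moved by no more than the SD between spots, 5 calls at 2-fold ended, all in the epidermis (A_51_P146701 and A_51_P434759 after loess and in the authors' deposited table, A_51_P378870 after loess), and none past 2-fold changed sign. No paired analysis was possible because each tissue has 1 array. Dim signals limit the dermal ratios: 18 members had both dermal signals under 200. A dermal signal of 200 or more was found for 61 of 79 members and for 12382 of the 13265 comparison probes.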
